A study of Malus hupehensis with 9 samples.

Results

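In bark phloem of the columnar apple hybrid QZ1 at bud break, 53 of 39951 annotated genes were low while 2 related rootstocks kept them at a like level. QZ1 has Malus hupehensis, an Asian crab apple used as a rootstock, as its mother and a columnar line named CO (Malus × domestica Borkh.) as its father. The rootstocks beside it were A1d, a mutant of M. hupehensis with a partial loss of response to gibberellin, and WT, the unmutated M. hupehensis, written PYTC in the labels. All 3 rootstocks were sampled as phloem at bud break, with 3 libraries each, and no treatment is given. The labels do not say whether the 3 libraries of a rootstock came from separate trees, so the spread between them may be technical. The labels do not give the gene changed in A1d or the number of QZ1 lines.

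Phloem is the bark tissue that carries sugars, hormones and RNA between roots, stem and buds, and at bud break it feeds the growing shoots. Columnar apple trees grow upright, with a thick stem and short fruiting spurs in place of long side branches. In apple the trait is dominant and maps to the Co locus on chromosome 10. Gibberellin is a hormone that promotes stem elongation.

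The 53 genes were chosen by their values, so their low level in QZ1 is the way they were found and not a result. Values were FPKM, read counts divided by gene length and library total, taken as log2(FPKM + 1). The highest of the 3 QZ1 libraries had to lie at least 1.5 log2 units below the lowest of 5 others, A1d replicates 2 and 3 and the 3 WT libraries. The means of these A1d and WT libraries had to differ by under 0.8 log2 units. A1d replicate 1 took no part in the choice. Identifiers MD10G1170000 to MD10G1199999 on chromosome 10 were left out, where 0 further genes met the other conditions. Of 74 genes in the file with the required gap, 21 were set aside because A1d and WT differed by 0.8 or more. The same rule turned round, for genes higher in QZ1, found 127.

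Library totals recovered from the FPKM steps were 15684510 to 18022986 reads. A1d replicate 1 stood apart, with 18107 genes listed at 0 against 7183 to 9029 in the other 8 libraries. The file pairs no identifier with a gene name, so the phloem label could not be set against marker genes, and the function of the members is not described here. Which identifiers are near-identical copies of each other is likewise not given in the sources used here, and reads of such copies may have been split between them. The first digits of an identifier are taken as its chromosome, as in the GDDH13 apple annotation whose form they have.

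Outside QZ1 the members covered a wide span of expression, and most were of middling or low level. Their mean level was 0 to 28.3 FPKM in QZ1 (median 0.265), 2.29 to 194 FPKM in A1d replicates 2 and 3 (median 9.76) and 2.72 to 263 FPKM in WT (median 9.80). The median WT level of all 26510 genes tested was 9.31 FPKM, near that of the members. In WT, 28 members were under 10 FPKM, 15 between 10 and 50 FPKM, and 10 at 50 FPKM or more. The QZ1 mean was at most 13.3% of the WT mean in any member, with a median of 2.63%. It was under 5% of the WT mean in 33 members and under 10% in 41. In bulk tissue, fewer cells of a type and less RNA in each cell cannot be told apart.

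The median difference of QZ1 from WT over the members was -2.80 log2(FPKM + 1), beside -0.10 over all genes tested. From A1d replicates 2 and 3 it was -2.72, beside -0.02 over all genes tested. In the moderated test of limma over all 26510 genes, with Benjamini-Hochberg adjusted p under 0.05, 49 of the 53 members were called lower in QZ1 than in WT, where 5.19% of all genes were. Against all 3 A1d libraries 43 were called lower, where 1.79% of all genes were. Since the choice used both contrasts, these counts describe the members and test nothing. With limma voom, which models the recovered reads, the count against A1d was 26. No member was called between A1d and WT by limma (0 of 53, against 3.07% of all genes) or by voom. At an unadjusted limma p under 0.05 there were 4, where 20.7% of all genes were. The choice bounds that difference too.

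The choice allowed a difference between A1d and WT of up to 0.8 log2 units. The median absolute difference between the means of A1d replicates 2 and 3 and of WT was 0.19 log2 units and the largest 0.79. The A1d mean was above the WT mean in 20 members and below it in 33. Among the 6 libraries outside QZ1, A1d replicate 2 was the lowest in 8 members and A1d replicate 3 in 6, while WT replicate 1 was the lowest in 10, WT replicate 2 in 5 and WT replicate 3 in 3.

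The gap between QZ1 and the other 5 libraries was over 3 log2 units in 4 members and at least 2 in 22. MD02G1269400 had the widest, at 3.56 log2 units. Its level was 0.243, 0.413 and 0.138 FPKM in QZ1, 22.0 and 15.6 FPKM in A1d replicates 2 and 3, and 18.2, 20.6 and 22.6 FPKM in WT. QZ1 thus held 1.29% of the WT mean, and A1d and WT overlapped. MD05G1231800, a short gene of 267 bases, was listed at 0 in all 3 QZ1 libraries, against 9.67 and 12.9 FPKM in A1d replicates 2 and 3 and 18.7, 12.6 and 16.1 FPKM in WT. MD05G1342500 had 0.119, 0.354 and 0 FPKM in QZ1, against 14.8 and 8.04 FPKM in A1d replicates 2 and 3 and 11.3, 14.0 and 19.9 FPKM in WT. In these genes the QZ1 libraries lay near the limit of detection, while those of both M. hupehensis types were at a moderate level.

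**Figure D1:**
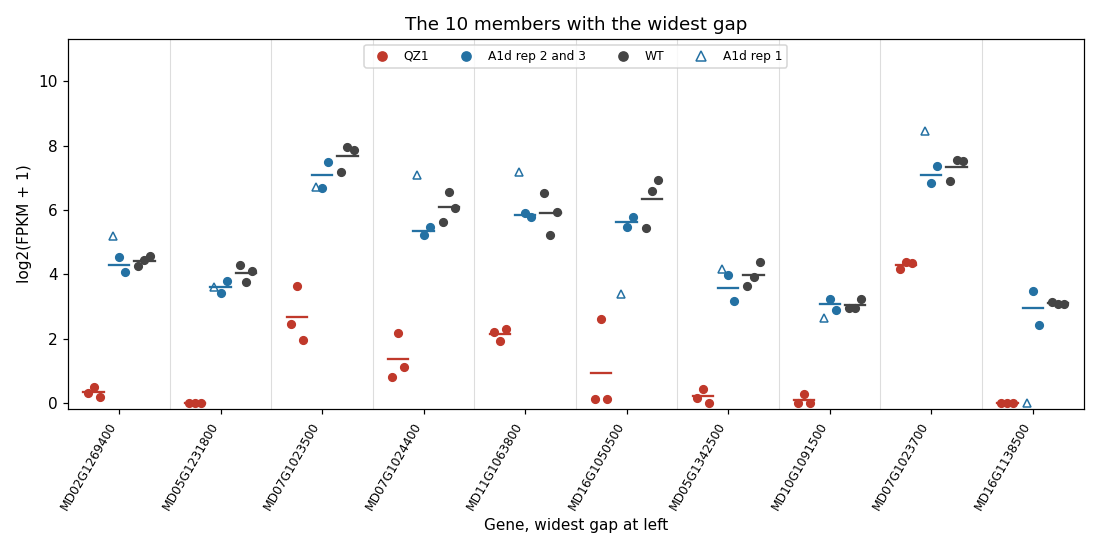
The 10 members with the widest gap, each library as a point on the log2(FPKM + 1) scale, with QZ1 (red) left of A1d (blue) and WT (black) and the mean of the libraries used in the choice as a bar. The open triangle is A1d replicate 1, which lies with the other A1d libraries or above them in most of these genes, below them in MD16G1050500 (9.54 FPKM) and MD10G1091500 (5.28 FPKM) and at 0 in MD16G1138500.

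MD10G1091500 was the only member on chromosome 10. It had 0, 0.205 and 0 FPKM in QZ1, a total of 2 reads, against 8.37 and 6.44 FPKM in A1d replicates 2 and 3 and 6.77, 6.76 and 8.45 FPKM in WT. MD16G1138500 had no read in QZ1, against 10.2 and 4.37 FPKM in A1d replicates 2 and 3 and 7.86, 7.48 and 7.41 FPKM in WT. In MD16G1138500 the 3 WT libraries lay between the A1d libraries. At the other end, MD15G1225800, MD08G1153900 and MD15G1309200 only just met the condition, with gaps of 1.504, 1.521 and 1.528 log2 units. MD01G1170000, MD02G1143400 and MD02G1141700 just missed it, with gaps of 1.497, 1.495 and 1.490 log2 units. Of these, MD01G1170000 had 2.16, 4.85 and 2.47 FPKM in QZ1, against 16.0 and 15.5 FPKM in A1d replicates 2 and 3 and 18.8, 21.9 and 25.2 FPKM in WT. Genes on either side of the limit had alike patterns, so the number 53 is set by the limit.

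The most abundant members were reduced in QZ1 but still measurable there. MD07G1023800 led, with 28.0, 30.9 and 26.2 FPKM in QZ1, 151 and 237 FPKM in A1d replicates 2 and 3, and 191, 309 and 289.9 FPKM in WT. MD07G1023700 had 17.0, 19.8 and 19.4 FPKM in QZ1, against 113 and 164 FPKM in A1d replicates 2 and 3 and 119, 188 and 183 FPKM in WT. The 3 QZ1 libraries were close together in both genes, at 10.8% and 11.5% of the WT mean. MD07G1023500 was more uneven, with 4.52, 11.4 and 2.85 FPKM in QZ1, against 101 and 179 FPKM in A1d replicates 2 and 3 and 145, 248 and 229.6 FPKM in WT. MD01G1089600 had 9.46, 18.9 and 10.5 FPKM in QZ1, against 161 and 91.5 FPKM in A1d replicates 2 and 3 and 119.9, 59.6 and 128 FPKM in WT. A1d and WT overlapped in each of these 4 genes, and A1d replicate 2 was below every WT library in the 3 on chromosome 7.

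MD15G1225800 had 17.8, 14.1 and 11.2 FPKM in QZ1, against 71.6 and 52.3 FPKM in A1d replicates 2 and 3 and 63.1, 147 and 131 FPKM in WT. MD13G1022400 had 9.50, 6.94 and 11.7 FPKM in QZ1, against 56.3 and 44.3 FPKM in A1d replicates 2 and 3 and 156, 55.4 and 62.1 FPKM in WT. In MD13G1022400 WT replicate 1 alone was high, and the other WT libraries were near A1d. MD11G1063800, the longest member at 4052 bases, had 3.59, 2.80 and 3.93 FPKM in QZ1, against 59.4 and 54.4 FPKM in A1d replicates 2 and 3 and 92.2, 36.4 and 59.7 FPKM in WT. MD05G1003600 had 1.45, 5.24 and 2.77 FPKM in QZ1, against 47.7 and 30.6 FPKM in A1d replicates 2 and 3 and 85.8, 49.9 and 64.0 FPKM in WT. MD05G1003600 was lower in A1d replicates 2 and 3 than in any WT library, but at 106 FPKM in A1d replicate 1, above every WT library. A1d and WT overlapped in the other 3 genes.

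By their reads in QZ1 the members fell into genes that were not detected, genes with reads in 1 or 2 libraries and genes with reads in all 3. No read was found in any QZ1 library for 13 members, where 0.464% of all genes tested were without reads in QZ1; the choice favours such genes. A further 5 members had 1 to 3 reads over the 3 libraries. Reads were present in every QZ1 library for 27 members, with at least 10 in each library for 21. The residue was not steady in all 27, since in 9 of them replicate 2 was at 2 times or more the mean of replicates 1 and 3. The remaining 13 members, the 5 with 1 to 3 reads among them, had reads in 1 or 2 QZ1 libraries. As examples of a steady residue, picked after their values were seen, MD09G1067500 had 1.41, 1.59 and 1.44 FPKM in QZ1, against 9.05 and 11.2 FPKM in A1d replicates 2 and 3 and 11.2, 11.9 and 10.3 FPKM in WT. MD05G1347000 had 0.597, 0.663 and 0.628 FPKM in QZ1, against 6.62 and 4.18 FPKM in A1d replicates 2 and 3 and 5.36, 3.96 and 5.65 FPKM in WT.

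For the 13 undetected genes the WT libraries held 54 to 372 reads together, at mean levels of 2.77 to 15.8 FPKM. Taking 3 reads over the 3 QZ1 libraries, of 53794713 in all, as the floor, these genes were at least 19.3-fold to at least 133-fold lower in QZ1 than in WT. The floor covers counting error only. MD07G1209400 gave the highest bound, at least 133-fold, with no read in QZ1, 9.76 and 7.62 FPKM in A1d replicates 2 and 3, and 5.84, 3.35 and 7.73 FPKM in WT. MD07G1019800 was at least 126-fold lower, with no read in QZ1, 4.80 and 14.9 FPKM in A1d replicates 2 and 3, and 3.10, 16.8 and 13.6 FPKM in WT. For MD05G1231800 the bound was 75.6-fold and for MD16G1138500 65.7-fold. MD15G1354700, with 54 reads in WT, had the lowest bound.

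The other undetected genes were low in A1d replicates 2 and 3 and WT as well. MD01G1033600 had 7.10 and 2.83 FPKM in A1d replicates 2 and 3 and 3.17, 4.39 and 4.50 FPKM in WT. MD08G1150400 had 2.59 and 5.60 FPKM in A1d replicates 2 and 3 and 4.40, 4.72 and 3.84 FPKM in WT. MD06G1238100 had 3.29 and 3.97 FPKM in A1d replicates 2 and 3 and 2.32, 6.20 and 4.53 FPKM in WT. A1d and WT overlapped in each of them. In MD02G1029900, MD16G1080400 and MD15G1354700 the A1d and WT libraries of the choice lay between 1.99 and 6.15 FPKM.

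The members were on the whole shorter than the genes tested. Lengths recovered from the FPKM steps ran from 261 to 4052 bases with a median of 960.0, against a median of 1535 over all genes tested. Under 1000 bases were 50.9% of the members (27 of 53) and 24.7% of all genes tested. The 13 undetected genes had a median length of 631 bases and the 40 others 1158.5 bases. A short gene collects fewer reads at the same FPKM, and the part of length in these results was not tested.

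Among the QZ1 libraries, replicate 2 most often held the residue. It was the highest of the 3 in 27 members, replicate 1 in 7 and replicate 3 in 6, with 13 tied at 0. Over all genes tested the shares were 37.8% for replicate 2, 28.0% for replicate 1 and 33.7% for replicate 3. Of the 8 members with reads in only 1 QZ1 library, 5 had them in replicate 2, 2 in replicate 1 and 1 in replicate 3. Among 27 members with reads in both replicates 1 and 3, replicate 2 was at 1.33 times their mean in the median and at 2 times or more in 9. Over all genes tested it was at 0.997 times in the median and at 2 times or more in 6.68%. The members were chosen as low in QZ1 and the genes tested were not, so these shares are not a like background. Replicate 2 also listed fewer genes of the whole file at 0, 7183, against 8603 in replicate 1 and 8141 in replicate 3. Scaling each library by its median ratio left replicate 2 highest in 28 members. Quantile normalization, which makes the libraries' distributions alike, left it highest in 20.

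MD16G1050500 showed this most, with 0.0821, 5.06 and 0.0816 FPKM in QZ1, that is 1, 62 and 1 reads. It had 42.9 and 53.8 FPKM in A1d replicates 2 and 3 and 42.7, 96.3 and 121 FPKM in WT. MD13G1049600, picked here after its values were seen, had the same form, with 0.205, 4.79 and 0.204 FPKM in QZ1, 43.7 and 41.4 FPKM in A1d replicates 2 and 3, and 22.8, 54.7 and 64.9 FPKM in WT. These 2 genes were also alike in A1d replicate 1, at 9.54 and 8.41 FPKM, under the other A1d libraries. In MD11G1063800 and MD13G1022400 replicate 2 was the lowest QZ1 library, and it had no read of the 13 undetected genes.

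QZ1 replicate 2 also set the size of the group. Without it the rule found 133 genes, the 53 members and 80 more. Leaving out replicate 1 or 3 of QZ1 added 11 or 12. Replicate 2 is the highest QZ1 library in all 80 by the way they were found, so nothing is read from that. It lay under every one of the other 5 libraries in 68 of the 80 and not in 12. Their median level was 0.540, 3.86 and 0.415 FPKM in QZ1 replicates 1, 2 and 3, against medians of 6.08 to 12.0 FPKM in A1d replicates 2 and 3 and WT. These levels describe genes picked on the same values, and what sets replicate 2 apart was not tested.

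**Figure D2:**
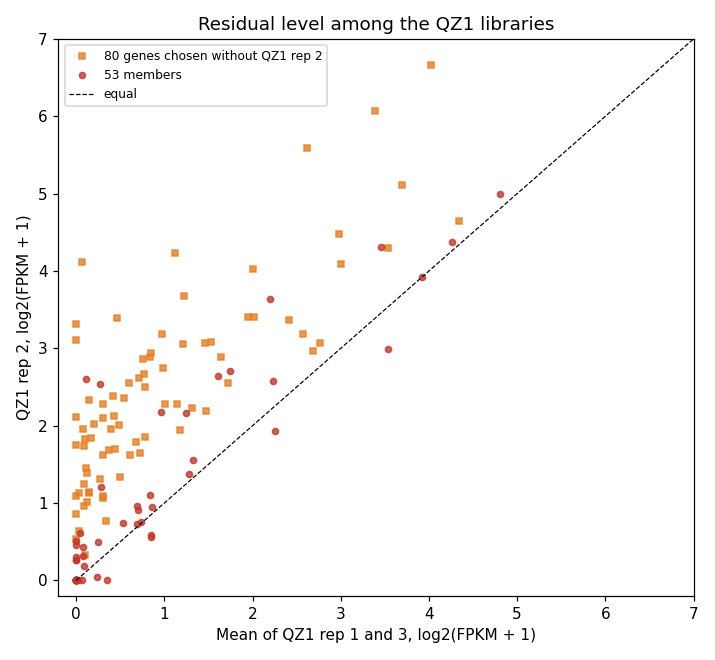
QZ1 replicate 2 against the mean of QZ1 replicates 1 and 3, both as log2(FPKM + 1), for the 53 members (red circles) and the 80 genes that the rule adds without replicate 2 (orange squares); the dashed line marks equal values. The choice of the 80 genes places them above the line; 27 members have replicate 2 as their highest QZ1 library.

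A1d replicate 1 was the only library outside the choice, so the members' level there was not fixed by it. It lay above every QZ1 library in 45 of 53 members (84.9%), where it did so in 35.2% of all genes tested. The margin was at least 1 log2 unit in 40 members, against 10% of all genes tested, and at least 1.5 in 36. The choice did fix the QZ1 side, since members had to be low there. In the 13 members with no read in QZ1, any read in A1d replicate 1 lay above. The genes tested as a whole carry no such limit, so their shares are not a like background. A single library gives no test. This library listed 21.3% of all genes tested at 0, against 2.21% and 1.17% in A1d replicates 2 and 3, and among the members it listed 7.

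MD07G1023800 reached 691 FPKM in A1d replicate 1, the highest value of any member in any library, against 28.0, 30.9 and 26.2 FPKM in QZ1. MD07G1023700 had 349 FPKM, MD11G1063800 144 FPKM and MD07G1024400 134 FPKM there, each above every A1d and WT library of the choice. A1d replicate 1 was the highest of the 6 libraries outside QZ1 in 19 members and the lowest in 21. Over all genes tested it was the highest in 25.7% and the lowest in 46.7%. It was at 2 times or more the mean of A1d replicates 2 and 3 in 14 members and at 0.5 times or less in 17, so its level often differed from theirs.

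The 8 members where A1d replicate 1 was not above every QZ1 library were of low level. MD12G1010800 was at 0 in it, with 0, 0 and 0.625 FPKM in QZ1, 9.46 and 6.70 FPKM in A1d replicates 2 and 3, and 3.83, 13.5 and 6.87 FPKM in WT. MD15G1252000 had 0.635 FPKM in it, under the 0.744, 0.924 and 0.877 FPKM of QZ1, beside 9.96 and 5.25 FPKM in A1d replicates 2 and 3. MD16G1138500, MD14G1228500 and MD01G1033600 were at 0 in it. The 7 members it listed at 0 averaged 3.66 to 8.08 FPKM in A1d replicates 2 and 3. With A1d replicate 1 made part of the rule, 40 genes qualified, 34 of them members.

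**Figure D3:**
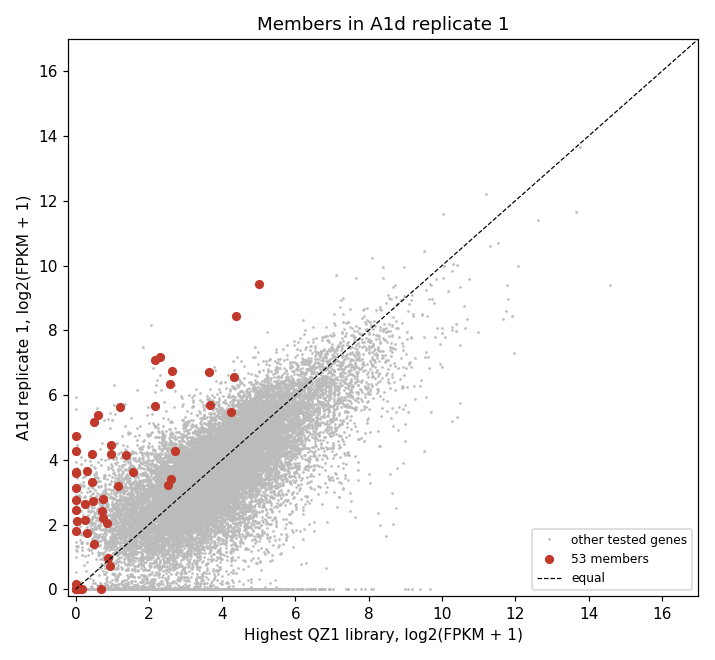
A1d replicate 1 against the highest of the 3 QZ1 libraries, both as log2(FPKM + 1), for the 53 members (red) and the other genes tested (grey); the dashed line marks equal values. Above the line are 45 members, and 7 lie on the bottom edge, where A1d replicate 1 lists no expression.

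The members were spread over 15 numbered chromosomes and the unplaced identifiers, numbered 0, with none on chromosomes 3 and 4. Chromosome 2 held 9 (0.524% of its genes tested), chromosome 7 held 7 (0.446%) and chromosome 15 held 7 (0.283%), against 0.200% over all genes tested. Chromosome 5 held 6. Chromosome 10, which carries the columnar locus, held 1 of 1690 genes tested (0.0592%), with part of it left out by the rule.

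Some members lay side by side, and some of the genes beside them were low in QZ1 too. On chromosome 7, MD07G1023500, MD07G1023700 and MD07G1023800 followed each other with 1 gene between, and MD07G1024400 came 6 identifiers later. The gene between, MD07G1023600, narrowly failed the condition, with 3.55, 11.8 and 0.196 FPKM in QZ1, against 34.6 and 77.8 FPKM in A1d replicates 2 and 3 and 39.1, 69.3 and 77.2 FPKM in WT. MD07G1024400 had 0.758, 3.54 and 1.16 FPKM in QZ1, against 35.9 and 42.9 FPKM in A1d replicates 2 and 3 and 48.6, 94.0 and 65.1 FPKM in WT. MD07G1024300 beside it had 0.613, 1.46 and 1.46 FPKM in QZ1, against 3.97 and 6.91 FPKM in A1d replicates 2 and 3 and 13.0, 19.3 and 14.1 FPKM in WT. From MD07G1023500 to MD07G1024400 every gene above 10 FPKM in WT was, in QZ1, below A1d replicates 2 and 3 and WT without overlap. The choice required this of the members among them, and 12.1% of all genes tested were below in this way.

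The genes at both ends of the low stretch were mixed. MD07G1023200, the first of the place, had 5.69, 6.59 and 6.14 FPKM in QZ1, against 6.02 and 7.02 FPKM in A1d replicates 2 and 3 and 9.42 to 10.6 FPKM in the 3 WT libraries. It lay below every WT library but was not called against WT by limma (adjusted p = 0.235). MD07G1023300, 2 identifiers ahead of the low stretch, had 11.2, 12.7 and 10.6 FPKM in QZ1, against 12.2 and 9.50 FPKM in A1d replicates 2 and 3 and 10.8, 11.5 and 12.6 FPKM in WT. QZ1 overlapped both other rootstocks in that gene. MD07G1023400 was not lower either, with 8.01, 8.30 and 11.9 FPKM in QZ1, against 7.62 and 4.67 FPKM in A1d replicates 2 and 3 and 4.51, 7.51 and 8.34 FPKM in WT. There QZ1 overlapped WT and lay above every A1d library, while limma called neither difference (adjusted p = 0.764 against WT and 0.267 against all 3 A1d libraries). Past MD07G1024400, MD07G1024600 went the other way at a low level, with 0.757, 0.684 and 0.410 FPKM in QZ1 and no read in any A1d or WT library. The next gene, MD07G1024700, had 3.65, 5.51 and 4.07 FPKM in QZ1, against 4.61 and 5.80 FPKM in A1d replicates 2 and 3 and 8.94, 15.5 and 14.3 FPKM in WT. It was called lower in QZ1 than in WT (log2 difference -1.34, limma adjusted p = 0.0202), while QZ1 overlapped A1d. Of the 13 genes tested from MD07G1023200 to MD07G1024700, 8 were called lower in QZ1 than in WT by limma, against 5.19% of all genes. The 4 members among the 8 were chosen as low in QZ1, and the place was picked after its values were seen.

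A smaller group of this kind stood earlier on chromosome 7. MD07G1019800, undetected in QZ1, followed MD07G1019600 and MD07G1019700. MD07G1019700 had 0.484, 2.07 and 0.571 FPKM in QZ1, against 7.99 and 17.6 FPKM in A1d replicates 2 and 3 and 6.31, 16.4 and 13.4 FPKM in WT. MD07G1019600 had 0.471, 1.52 and 0.351 FPKM in QZ1, against 5.20 and 5.83 FPKM in A1d replicates 2 and 3 and 4.73, 9.04 and 10.5 FPKM in WT. QZ1 was below the others without overlap in each of the 3 genes, where 12.1% of all genes tested were below A1d replicates 2 and 3 and WT. The choice required it of MD07G1019800, a member. WT replicate 1 was the lowest WT library in all 3 genes. A1d replicate 1, at 14.7, 25.6 and 25.9 FPKM in the order of the identifiers, was above the other A1d libraries. Around these genes, QZ1 overlapped WT in MD07G1019500 and A1d in MD07G1019900. In MD07G1020000 it lay narrowly below A1d replicates 2 and 3 and WT.

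On chromosome 2 the neighbours MD02G1071000 and MD02G1071100 were both members. MD02G1071000 had 1.55, 3.48 and 1.22 FPKM in QZ1, against 26.9 and 21.9 FPKM in A1d replicates 2 and 3 and 25.6, 20.0 and 16.2 FPKM in WT. MD02G1071100 had 2.36, 5.54 and 2.35 FPKM in QZ1, against 33.7 and 40.8 FPKM in A1d replicates 2 and 3 and 41.8, 25.1 and 40.2 FPKM in WT. In both genes QZ1 replicate 2 held the largest residue. MD02G1071200 next to them had 11.7, 18.6 and 9.66 FPKM in QZ1, against 49.1 and 38.9 FPKM in A1d replicates 2 and 3 and 85.7, 50.1 and 71.6 FPKM in WT. Its gap was 1.02 log2 units. Ahead of these, MD02G1070700 had 0.441, 11.0 and 0.658 FPKM in QZ1, so that replicate 2 alone reached the level of WT, at 10.6, 8.30 and 7.17 FPKM. A1d replicates 2 and 3 had 3.10 and 3.17 FPKM. MD02G1070600 before it was above WT, with 4.48, 11.7 and 5.10 FPKM in QZ1 and 2.91, 2.68 and 3.09 FPKM in WT. MD02G1071600 was called higher in QZ1 than in WT (log2 difference 1.38, limma adjusted p = 0.0251). From MD02G1070600 to MD02G1071600, 3 of 9 genes tested were called lower than WT, the 2 members among them, against 5.19% of all genes.

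Further along chromosome 2, MD02G1282600 and MD02G1282700 adjoined. MD02G1282600 had 0.0664, 0.528 and 0 FPKM in QZ1, against 9.92 and 9.61 FPKM in A1d replicates 2 and 3 and 6.33, 21.8 and 18.7 FPKM in WT. MD02G1282700 had 0, 0.375 and 0 FPKM in QZ1, against 6.28 and 6.68 FPKM in A1d replicates 2 and 3 and 4.04, 15.0 and 8.83 FPKM in WT. WT replicate 1 was the lowest of the 5 libraries of the choice in both. Genes around these were weakly expressed in every rootstock, up to 2.84 FPKM in MD02G1282900. That gene had 0, 0.547 and 0 FPKM in QZ1. It was called lower in QZ1 than in WT (limma adjusted p = 0.0337) but not than in A1d (adjusted p = 0.192). From MD02G1282400 to MD02G1282900, all 3 genes tested were called lower than WT, the 2 members among them, against 5.19% of all genes.

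**Figure D4:**
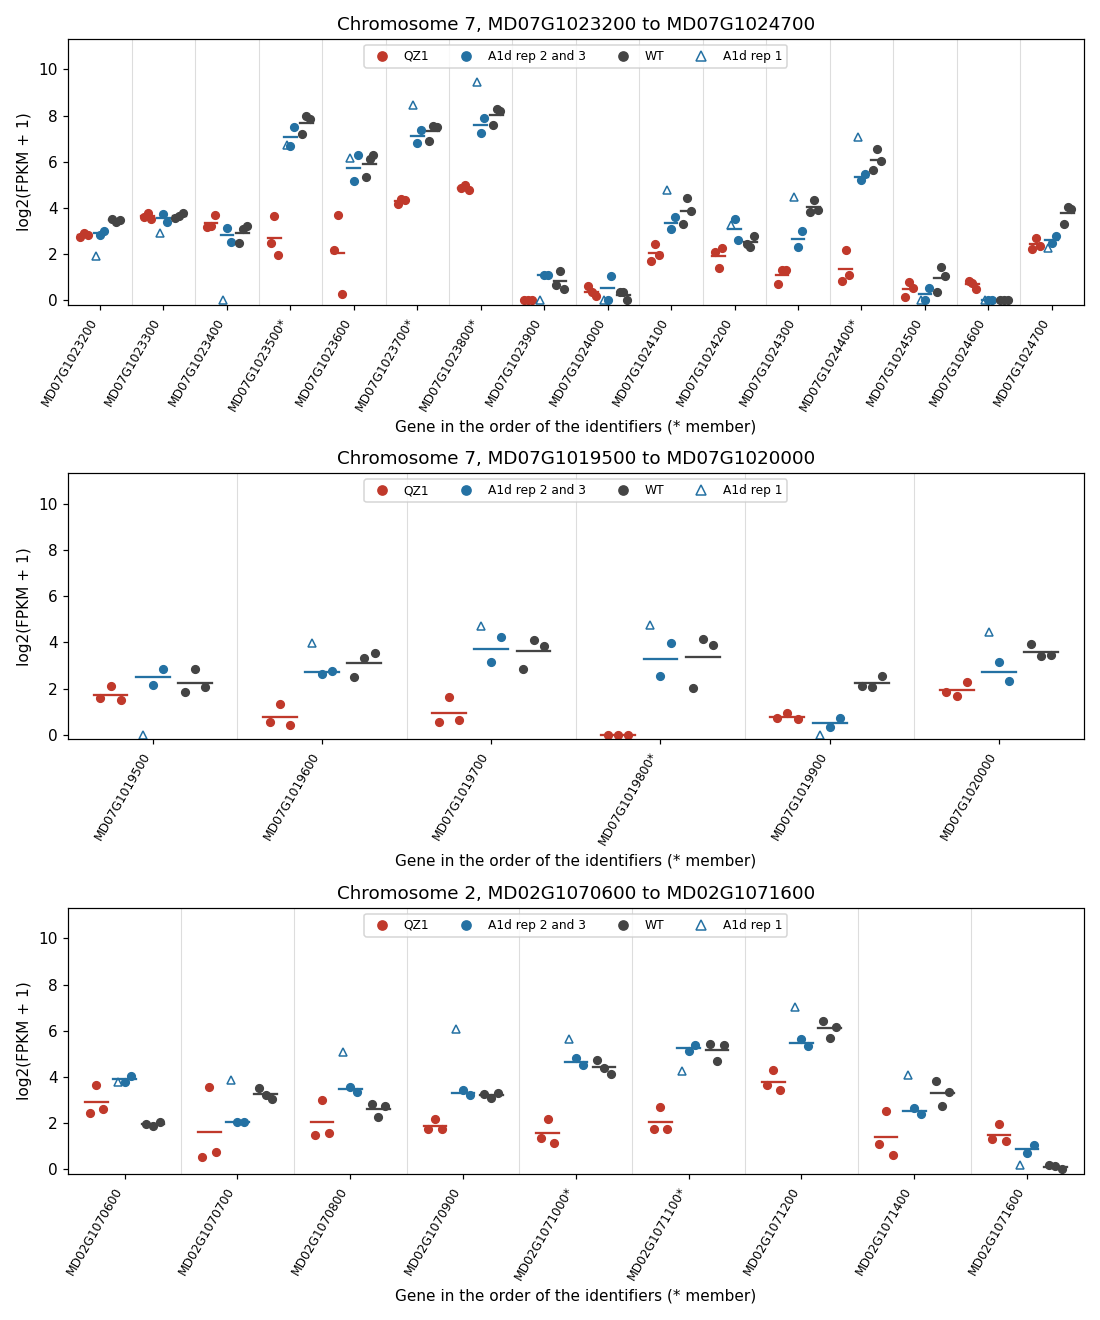
Genes in the order of their identifiers at 3 places on chromosomes 7 and 2, each library as a point on the log2(FPKM + 1) scale with QZ1 (red) left of A1d (blue) and WT (black); bars are means without A1d replicate 1 (open triangle) and stars mark members. In the top panel the low QZ1 values begin at MD07G1023500; of the 3 genes before it, QZ1 overlapped A1d in 2 and lay above A1d in MD07G1023400.

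The neighbours of all members were counted to see how general this was, a count chosen after these places were seen. Non-members within 2 identifiers of a member on a numbered chromosome came to 185, of which 124 were expressed enough to be tested. In limma 20 of them (16.1%) were called lower in QZ1 than in WT, against 5.19% of all genes tested, and 2 (1.61%) higher, against 5.05%. Lower than A1d were 13 (10.5%), against 1.79%. Within 1 identifier 13 of 63 (20.6%) were lower than in WT, and within 5 identifiers 32 of 289 (11.1%). Leaving out the members at the 4 places described gave 13 of 109 (11.9%) within 2 identifiers. Some neighbours may be copies that share reads with a member, and the part of this in the counts was not tested. The count of 20 became 7 and 8 without QZ1 replicate 1 and 3, 9 and 6 without WT replicate 2 and 3, and 11 with voom. It was 30 without A1d replicate 1, where 13.2% of all genes were called lower. At the smallest count, without WT replicate 3, the share was 4.84%, against 1.94% of all genes.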

How the data were processed

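Polyadenylated RNA of phloem was sequenced in 9 libraries made with the TruSeq Stranded mRNA kit, per the labels' protocols. Trimmomatic is named in the submitters' processing notes; which aligner, counter, genome build and annotation were used is not given in the sources used here. The authors deposited FPKM for 39951 gene identifiers, a unit read from the name of the table.

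The steps of the FPKM values gave back library totals, gene lengths and whole reads: all 37548 genes above 0 came out whole, within 0.0001 reads plus the rounding of the values. The method was tested on simulated data. A unit may be a read or a read pair.

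Genes with FPKM of at least 1 in at least 3 libraries, 26510, entered a moderated test in limma 3.58.1 (R 4.3.3) on the log2(FPKM + 1) scale, all 9 libraries sharing 1 estimate of the spread, with an intensity trend. The differences understate the change of low genes. Other values were computed with Python 3.11.15, numpy 2.4.6 and pandas 2.3.3, and drawn with matplotlib 3.10.9.

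The members, tests and rules were chosen with earlier results of these data known. The genes named are the 10 members with the widest gap, the 10 most abundant, the 3 on each side of the limit, members within 5 identifiers of another, up to 10 undetected in QZ1 and up to 5 not higher in A1d replicate 1. Genes beside members were named after their values were seen. Gene lists by function, planned for named genes, were not used, since no identifier is named. Alternatives were another pseudocount, filter, scaling, gap or bound, the replicate number as a block, voom, and leaving out each library.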

Additional observations from a re-analysis of the deposited data

How the results depend on the processing

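The number of genes that met the rule was 142 with a pseudocount of 0.1 (51 of the 53 among them), 133 with a gap of 1 log2 unit, 22 with a gap of 2 log2 units and 35 with A1d and WT within 0.4. Leaving out 1 library gave 56 to 133 genes, the most without QZ1 replicate 2. The count against WT stayed within 1.5 times of 49 under all 16 alternatives, and the 13 undetected genes became 14 to 18 without 1 QZ1 library. Members called lower than A1d became 26 with limma voom on the recovered reads, where 0.905% of all genes were called. Without 1 library they were 30 to 53, where 0.498% to 2.61% of all genes were called. Between A1d and WT, 0 to 1 members were called without 1 library, the 1 without WT replicate 1. Of the members' neighbours, 32 were lower than WT within 5 identifiers, 13 without the 4 places, 11 with voom, and 6 to 30 without 1 library. Of all genes, 2.995% were called lower than WT with voom, and 1.84% to 13.2% without 1 library. Voom, and all settings for the neighbours and for QZ1 replicate 2, were chosen after seeing the data. Apart from those that change the rule, leave out a library or widen the neighbourhood, the cause of these moves was not tested.

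Libraries of the same replicate number did not deviate together: the correlation of their deviations across genes was -0.178 to 0.0418, over 0.1 in 0 of 9 pairs. With the replicate block, 46 members were called lower than WT (against 3.73% of all genes), 41 lower than A1d (against 0.868%) and 0 between A1d and WT. With the block, 18 neighbours (14.5%) were lower than WT, against the same 3.73%.

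Depth limits the genes at few reads: the 18 members with at most 3 QZ1 reads have no measured QZ1 level, and each rootstock rests on 3 libraries.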
